A study of Mus musculus with 6 samples.

Results

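The mitochondrial solute carriers of the Slc25 family and the 3 uncoupling proteins were read out of whole kidney RNA. Members were taken by symbol: every protein-coding gene whose symbol began with Slc25a and a number, together with *Ucp1*, *Ucp2* and *Ucp3*, 50 genes of the 54532 in the table. The symbols came from the GENCODE M21 annotation, and the pseudogene Slc25a5-ps was left out. Kidneys of male mice on a C57BL/6 background that carried KsprtTA alone (Control, 3 libraries) were compared with kidneys of mice that carried KsprtTA and a TRE-adiponectin transgene (KSPAPN, 3 libraries). Both groups ate normal chow with doxycycline at 600 mg/kg for 4 days. Each library pooled the RNA of 3 mice, so 9 mice stood behind each group, and a pool hides the spread between its mice. The Ksp-cadherin promoter switches the transgene on in tubular epithelium along the nephron and the collecting system, not in every kidney cell, and no source used here gives the ages of these mice.

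Carriers of this family span the inner mitochondrial membrane and exchange small solutes between cytosol and matrix: adenine nucleotides and phosphate for ATP synthesis, carboxylates for the citric acid cycle and gluconeogenesis, amino acids, cofactors, iron and glutathione. A few members sit elsewhere, in peroxisomes or in the outer mitochondrial membrane. Proximal tubule cells are packed with mitochondria and make glucose, so the kidney draws on most of these exchanges.

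Libraries held between 17183358 and 20871173 reads counted on genes. *Adipoq*, the transgene product, had 2, 0 and 2 counts in the Control libraries and 24629, 17483 and 26811 in the KSPAPN libraries, which matched the labels. KSPAPN 1 stood apart from the other KSPAPN libraries: chi-square per degree of freedom over genes was 41.1 and 30.5 against KSPAPN 2 and 3, and 12.2 between KSPAPN 2 and 3. The defining markers of kidney tubule were abundant in all 6 libraries. Summed over 12 proximal tubule markers, read counts scaled to library size (CPM) were 13800 to 16200 in Control and 12200 to 13000 in KSPAPN. Of these markers 10 of 12 were lower in KSPAPN, 3 of them past the test (*Slc22a6*, *Slc7a13* and *Miox*), with a median log2 fold change of -0.24. The part of this difference in the carrier results was not tested, and in whole kidney RNA fewer cells of a type and less RNA per cell cannot be told apart.

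Most carriers tested were lower in KSPAPN by a small amount, and 2 fell past the test. Of the 50 members, 44 had enough reads for edgeR's quasi-likelihood test. The log2 fold change of KSPAPN over Control was below 0 for 33 of the 44 and above 0 for 11, while 47.9% of all protein-coding genes tested were below 0. Across the members the median log2 fold change was -0.14, and across all protein-coding genes tested it was 0.013. With a correction for GC content and length these medians were -0.051 and 0.041, with 26 members below 0 and 18 above, and with scaling by total counts alone -0.078 and 0.082. *Slc25a48* and *Slc25a10* had an edgeR adjusted p under 0.05, both lower, where 2.47% of protein-coding genes tested were lower at that threshold. Without Control 1, Control 2 or KSPAPN 3 no member was called, where 0.235%, 0.761% and 0.393% of protein-coding genes were called lower. Without Control 3 or KSPAPN 2 there was 1 member, where 1.8% and 1.62% of protein-coding genes were lower. Without KSPAPN 1 there were 4, where 3.92% were lower. No member was higher at that threshold, with 0.449% of protein-coding genes higher there. At an unadjusted edgeR p under 0.05 there were 11 members lower and 4 higher, against 11.9% and 8.18% of protein-coding genes. DESeq2 gave 5 members lower and 0 higher at an adjusted p under 0.05, against 5.80% and 1.65% of the protein-coding genes to which it gave an adjusted p. All 3 KSPAPN libraries lay below all 3 Control libraries for 11 members, against 13.8% of protein-coding genes, and above them for 2, against 12.1%. Members are separate genes measured in the same 6 libraries, so their directions are not independent of each other.

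The family took a smaller share of the reads in KSPAPN. Its counts made up 0.588%, 0.565% and 0.584% of the reads in Control 1 to 3 and 0.562%, 0.508% and 0.536% in KSPAPN 1 to 3. Its summed FPKM (fragments per length of transcript with the authors' scaling of each library, a level per length) was 1839, 1871 and 1813 in Control and 1597, 1631 and 1641 in KSPAPN. That scaling did not follow the total counts on genes alone, so the FPKM sum is not a plain share of reads. On both scales every KSPAPN library was below every Control library.

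**Figure D1:**
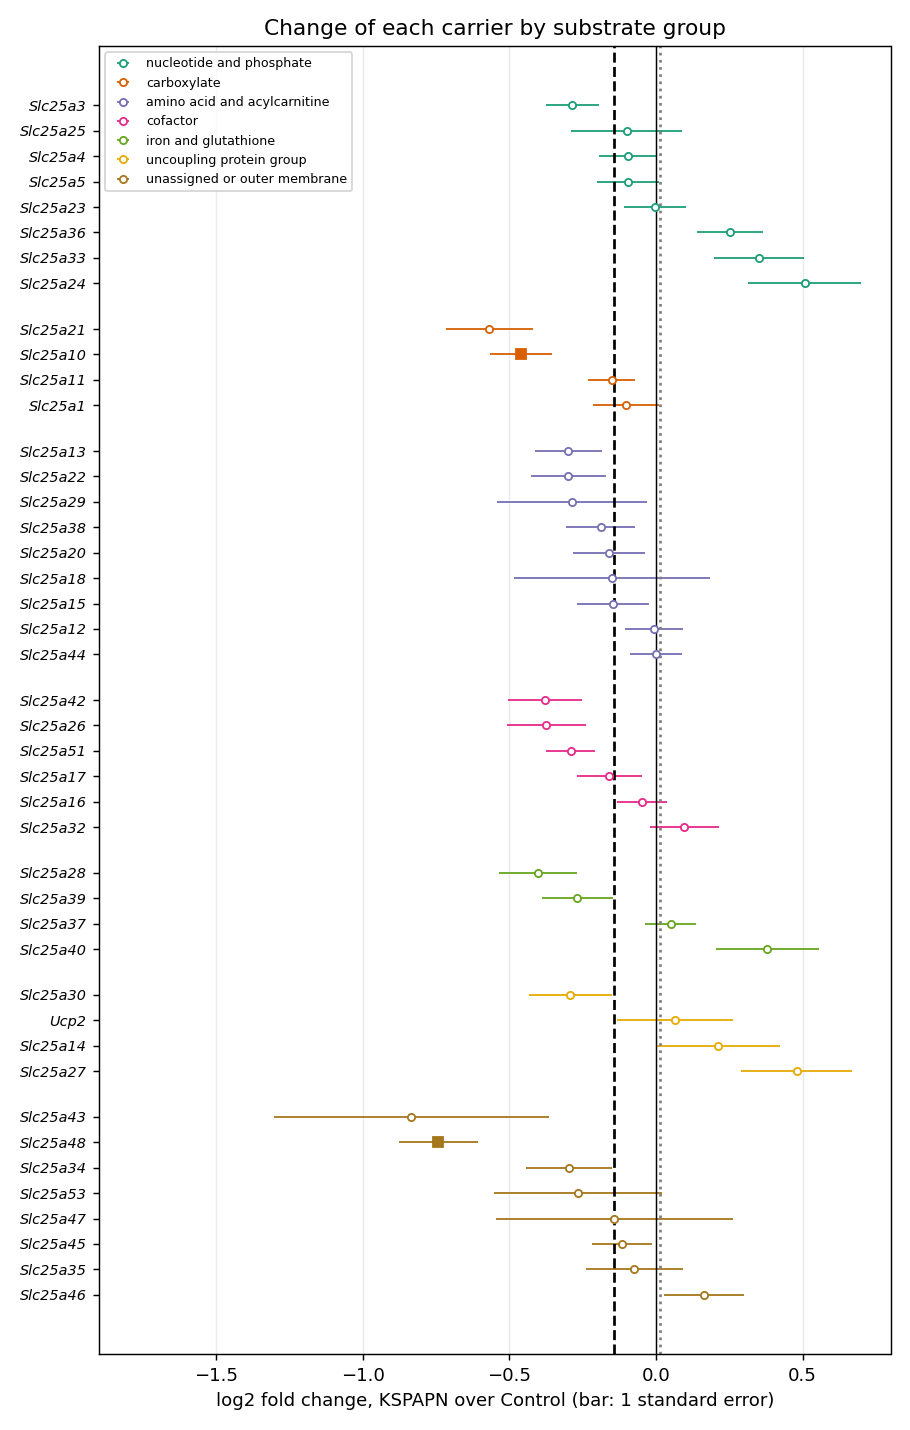
Log2 fold change of KSPAPN over Control (horizontal axis) for 43 of the 44 members tested, grouped and coloured by substrate, with bars of 1 standard error and filled squares for the 2 members with an edgeR adjusted p under 0.05. The dashed line is the members' median of -0.14 and the dotted line the median of all protein-coding genes tested, 0.013, and most points lie to the left of 0.

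A few carriers made up most of the family's transcripts. In Control the order by mean FPKM was *Slc25a5* (532 ± 25.7, SD, n = 3), *Slc25a39* (272.5 ± 3.32), *Slc25a3* (152 ± 3.39), *Slc25a10* (129.5 ± 4.52), *Slc25a4* (117 ± 7.12), *Slc25a11* (82.7 ± 1.83), *Slc25a1* (66.5 ± 3.94) and *Slc25a51* (45.1 ± 1.36). Each of these 8 was above the next in every Control library, with no overlap between neighbours. Below them came *Slc25a17* (34.3 ± 3.01) and *Slc25a15* (34.2 ± 4.74), whose libraries overlapped each other. In KSPAPN *Slc25a4* (109 ± 9.40) had a higher mean than *Slc25a10* (93.6 ± 10.5), but their libraries overlapped. The 5 most abundant members held 64.4% to 65.5% of the family's FPKM in every library, and the 10 most abundant 78.8% to 80.0%.

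**Figure D2:**
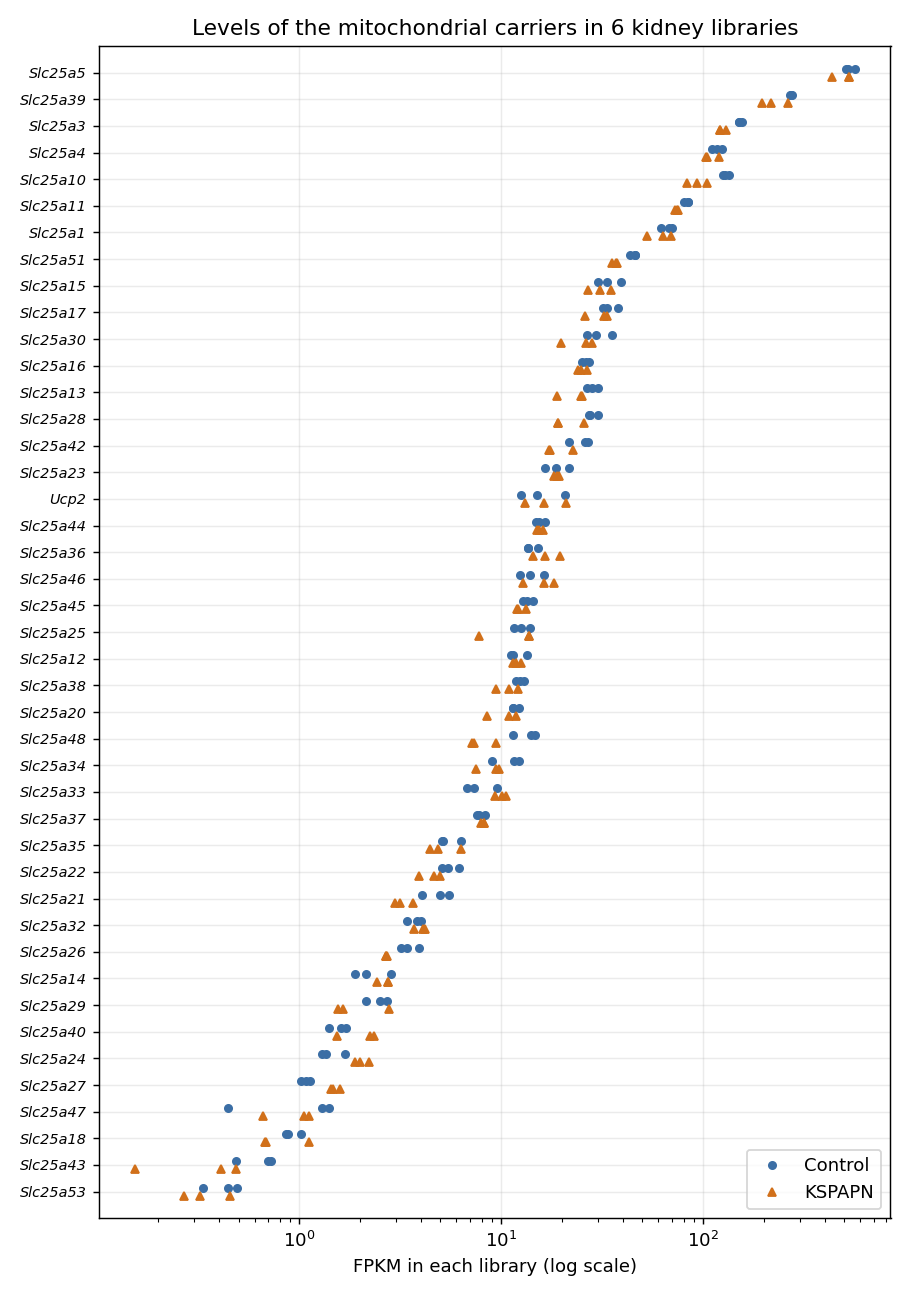
FPKM of 43 of the 44 members tested (horizontal axis, log scale) in each of the 6 libraries, with Control as circles and KSPAPN as triangles and members ordered from most to least abundant. Levels run from about 532 FPKM for *Slc25a5* in Control to under 1 FPKM for *Slc25a43* and *Slc25a53*, and the triangles of *Slc25a10*, *Slc25a48* and *Slc25a51* stand to the left of their circles.

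The largest change past the test was that of *Slc25a48* (ENSMUSG00000021509, GRCm38 chr13:56438355-56474239), an inner membrane carrier that recent work has linked to choline uptake. Its FPKM was 14.7, 14.0 and 11.5 in Control and 7.13, 9.45 and 7.37 in KSPAPN. All KSPAPN libraries were below all Control libraries. The mean fell from 13.4 ± 1.69 to 7.98 ± 1.28 (SD, n = 3), a fold of 0.598 and a log2 fold change of -0.74 with a standard error of 0.13 (edgeR adjusted p = 0.0225, DESeq2 adjusted p = 1.98e-04). Among the members tested it moved from position 23 to position 30 by mean FPKM. Without Control 1, Control 2 or KSPAPN 3 the edgeR adjusted p was 0.118, 0.0745 and 0.109, and leaving out any 1 library kept the log2 fold change between -0.87 and -0.66. With limma on log2(FPKM + 1) and log2(FPKM + 0.1) the adjusted p was 0.0654 and 0.0631.

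The promoters of 4 members are shown: the 2 that fell past edgeR's test, the most abundant member that DESeq2 called lower, and, for contrast, the member with the highest log2 fold change, which passed no test. Each window runs from 250 bases before to 50 bases after the start of transcription, 300 bases on the gene's strand, from RefSeq on GRCm38.p6. Capitals mark matches to the GC box (GGGCGG, or CCGCCC on the other strand), the CCAAT box (ATTGG on the other strand), an element bound by HNF4 (CAAAGTTCA) and one bound by NRF1 (in the window of *Slc25a3*).
The windows lie at chr13:56438105-56438404 (plus strand), chr11:120491587-120491886 (plus), chr10:91123918-91124217 (minus) and chr3:109122899-109123198 (plus).
Slc25a48: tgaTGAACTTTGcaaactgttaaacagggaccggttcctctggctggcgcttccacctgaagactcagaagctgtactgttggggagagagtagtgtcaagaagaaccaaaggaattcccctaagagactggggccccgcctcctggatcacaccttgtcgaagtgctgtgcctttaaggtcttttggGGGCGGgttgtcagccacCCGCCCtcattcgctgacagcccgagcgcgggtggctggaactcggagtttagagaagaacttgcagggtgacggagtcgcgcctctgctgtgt
Slc25a10: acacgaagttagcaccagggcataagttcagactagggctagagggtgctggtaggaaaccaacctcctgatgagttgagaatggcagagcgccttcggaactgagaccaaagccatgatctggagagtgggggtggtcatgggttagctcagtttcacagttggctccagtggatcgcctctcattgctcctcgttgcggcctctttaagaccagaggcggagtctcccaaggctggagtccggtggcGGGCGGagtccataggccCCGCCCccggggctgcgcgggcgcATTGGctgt
Slc25a3: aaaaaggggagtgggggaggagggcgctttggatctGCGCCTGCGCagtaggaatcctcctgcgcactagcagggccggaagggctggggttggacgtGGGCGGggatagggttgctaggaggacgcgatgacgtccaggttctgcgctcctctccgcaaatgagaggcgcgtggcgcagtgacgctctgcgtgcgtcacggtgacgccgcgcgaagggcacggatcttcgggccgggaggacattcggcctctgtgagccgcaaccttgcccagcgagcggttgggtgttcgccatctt
Slc25a24: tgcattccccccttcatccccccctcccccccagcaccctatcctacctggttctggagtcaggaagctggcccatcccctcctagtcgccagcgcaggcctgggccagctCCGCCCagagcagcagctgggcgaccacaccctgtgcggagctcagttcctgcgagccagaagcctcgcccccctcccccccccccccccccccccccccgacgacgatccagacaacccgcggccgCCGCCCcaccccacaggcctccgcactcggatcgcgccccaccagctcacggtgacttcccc
RefSeq windows were searched for 39 of the 50 members. The search left out *Slc25a2* and *Slc25a46* by their chromosome, a filter that was not set for all genes. A GC box was in 31 of the 39, 79.5%, and in 51.0% of all 16522 protein-coding genes with a window. A CCAAT box was in 19, 48.7%, and in 42.1% of all. The E-box CACGTG was in 7 members, 17.9%, and in 9.18% of all these genes, and the cAMP response element TGACGTCA in 2, 5.13%, and in 2.64% of all. The NRF1 element was in 2 members, *Slc25a3* and *Slc25a31*, 5.13%, and in 7.44% of all. No member searched had TNAAGGTCA, the element of the ERR receptors, which was in 1.21% of all. The HNF4 element was in *Slc25a48* alone among the members searched, 2.56%, and in 0.43% of all. Both strands were searched, the CCAAT and other motifs may overlap each other, and the motifs were chosen after the values had been seen. A match is a description of letters.

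All 4 carboxylate carriers had a log2 fold change below 0, from -0.57 to -0.10 with a median of -0.31, except that with the GC content and length correction *Slc25a1* was at 0.11 and *Slc25a11* at 0.013, and without KSPAPN 3 *Slc25a1* was at 0.0002. Of the 4, 1 fell past edgeR's test. *Slc25a10* (ENSMUSG00000025792, chr11:120491840-120499187), the dicarboxylate carrier, exchanges malate and succinate for phosphate. Its FPKM was 134, 129 and 125 in Control and 104.5, 83.5 and 92.7 in KSPAPN, with no overlap of the groups. The log2 fold change was -0.46 with a standard error of 0.11, a fold of 0.727 (edgeR adjusted p = 0.0498, DESeq2 adjusted p = 0.00181). Leaving out any library except KSPAPN 1 lost the call: the edgeR adjusted p was 0.206, 0.109, 0.0987, 0.134 and 0.174 without Control 1, 2, 3 and KSPAPN 2, 3, and 0.0141 without KSPAPN 1, while the log2 fold change stayed between -0.54 and -0.38. The call was also lost with total counts (edgeR adjusted p = 0.122) and with limma on log2(FPKM + 1) and log2(FPKM + 0.1) (adjusted p = 0.0746 and 0.0751). With a correction for GC content and transcript length the log2 fold change was -0.24 with an adjusted p of 0.16 (edgeR). Its longest transcript has a GC content of 60.6%, and 6.7% of its 100-base stretches also lie in Gm11788 on the other strand, whose reads cannot be told apart without strand.

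*Slc25a21* (ENSMUSG00000035472, chr12:56712634-57197472) carries oxodicarboxylates from lysine and tryptophan breakdown. It had 4.995, 5.54 and 4.06 FPKM in Control and 3.16, 3.67 and 2.97 in KSPAPN, again with no overlap. The log2 fold change was -0.57 with a standard error of 0.15 (edgeR adjusted p = 0.0757), and DESeq2 called it lower (adjusted p = 0.0182). Of the 16 alternatives 5 called *Slc25a21*, but none with 1 library left out, where the edgeR adjusted p ran from 0.0625 to 0.253. Total counts gave 0.106 (edgeR), and limma with a pseudocount of 1 or 0.1 gave 0.128 and 0.124. It overlaps *Pax9* on the other strand in 3.59% of its 100-base stretches. *Slc25a11*, the oxoglutarate carrier, stood at 83.9, 83.6 and 80.6 FPKM in Control and 72.8, 74.5 and 75.3 in KSPAPN, a small shift without overlap (log2 fold change -0.15, SE 0.080, edgeR adjusted p = 0.346). *Slc25a1*, the citrate carrier, had 69.7, 67.7 and 62.1 FPKM in Control and 69.1, 63.0 and 52.7 in KSPAPN, which overlapped (-0.10, SE 0.11, edgeR adjusted p = 0.672). Carboxylate carriers made up 15% to 15.9% of the family's FPKM in Control and 13.6% to 15.6% in KSPAPN.

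**Figure D3:**
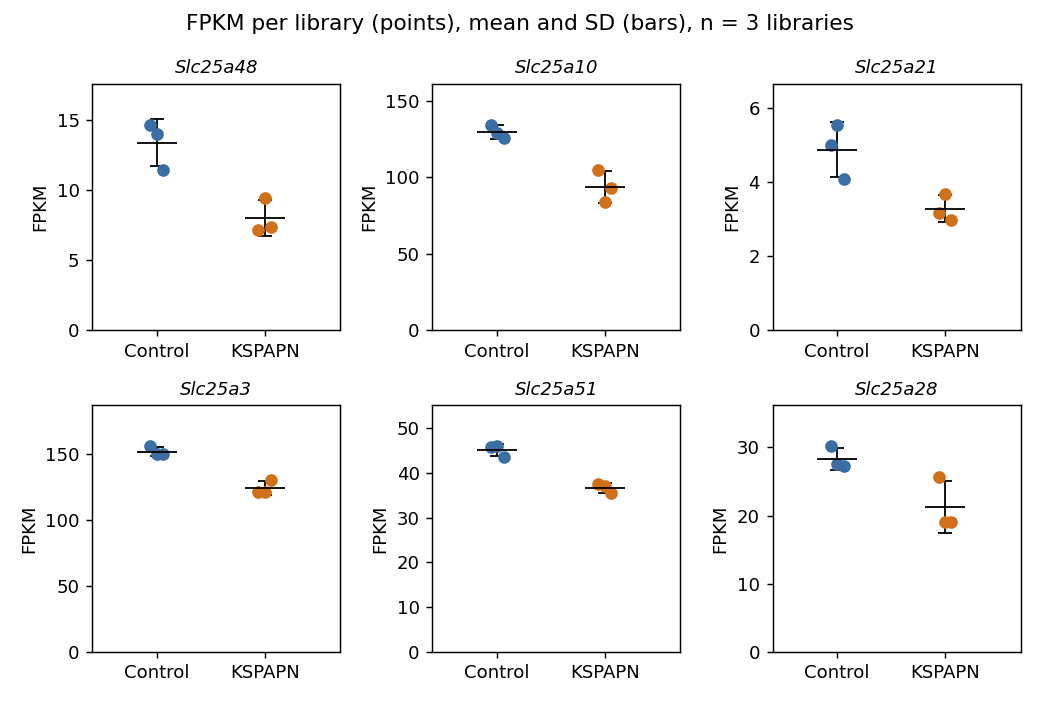
FPKM per library (vertical axes from 0) in Control and KSPAPN for 6 members with points for the 3 libraries of each group, a horizontal line for the mean and bars for the SD. All 6 are among the 11 members lower in KSPAPN without overlap, so the KSPAPN points lie below those of Control by the choice of panels. Of the 6, edgeR called *Slc25a48* and *Slc25a10*, and DESeq2 called all but *Slc25a28*. The mean went from 13.4 to 7.98 for *Slc25a48* and from 152 to 124 for *Slc25a3*.

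The nucleotide and phosphate carriers moved in both directions, 5 of 8 tested lower and 3 higher, with a median log2 fold change of -0.049 and none past edgeR's test. The adenine nucleotide translocators exchange ADP for ATP. *Slc25a5*, the second of them and the most abundant member, had 524, 561 and 512 FPKM in Control and 435, 527.5 and 527 in KSPAPN (log2 fold change -0.095, SE 0.10, edgeR adjusted p = 0.675). Its groups overlapped, and 12.0% of its 100-base stretches also lie in pseudogenes, so some of its reads are uncertain. *Slc25a4*, the first, had 117, 110 and 124 FPKM in Control and 104, 103 and 120 in KSPAPN (-0.097, SE 0.097, edgeR adjusted p = 0.643). With the GC content and length correction both turned sign, to 0.034 for *Slc25a5* and 0.041 for *Slc25a4*, and without KSPAPN 1 *Slc25a5* was at 0.0034.

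*Slc25a3* (ENSMUSG00000061904, chr10:91116574-91124059) brings phosphate into the matrix for ATP synthesis. It was 156, 150 and 150 FPKM in Control and 121, 122 and 130 in KSPAPN, every KSPAPN library below every Control library. The mean went from 152 ± 3.39 to 124 ± 5.17, a log2 fold change of -0.29 with a standard error of 0.090, which edgeR did not call (adjusted p = 0.125) and DESeq2 did (adjusted p = 0.0346). With 1 library left out the edgeR adjusted p ran from 0.139 to 0.365.

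The 3 members of this group above 0 were *Slc25a24*, *Slc25a33* and *Slc25a36*, none of them past the test. *Slc25a24* (ENSMUSG00000040322, chr3:109123149-109168457), a calcium-regulated exchanger of ATP-magnesium for phosphate, had 1.35, 1.29 and 1.68 FPKM in Control and 2.22, 1.90 and 1.997 in KSPAPN. Its groups did not overlap, and its log2 fold change of 0.51 (SE 0.19) was the highest of the members tested but did not pass (edgeR adjusted p = 0.194). The pyrimidine nucleotide carriers *Slc25a33* and *Slc25a36* had log2 fold changes of 0.35 (SE 0.15) and 0.25 (SE 0.11), both with an edgeR adjusted p of 0.257. *Slc25a33* had 6.78, 7.33 and 9.50 FPKM in Control and 10.1, 9.34 and 10.5 in KSPAPN, where the highest Control library lay within the KSPAPN range, and it shares 10.2% of its 100-base stretches with Gm13068 on the other strand. *Slc25a36* had 13.6, 15.1 and 13.6 FPKM in Control and 14.4, 19.5 and 16.5 in KSPAPN, with 1 KSPAPN library inside the Control range, and without KSPAPN 2 its log2 fold change was 0.14. The group's share of the family's FPKM was 46.5%, 46.7% and 46.5% in Control and 45.0%, 49.7% and 51.2% in KSPAPN.

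Amino acid and acylcarnitine carriers were below 0 in 8 of 9 tested, with a median of -0.16 and none past the test. The aspartate-glutamate carriers move reducing equivalents into mitochondria with the malate-aspartate shuttle. *Slc25a13*, citrin, had 28.3, 30.01 and 26.6 FPKM in Control and 18.8, 24.9 and 25.03 in KSPAPN, without overlap (log2 fold change -0.30, SE 0.11, edgeR adjusted p = 0.194), and without KSPAPN 1 it was at -0.16. *Slc25a12*, aralar, had 11.5, 11.2 and 13.5 and then 12.5, 11.4 and 11.8, with overlap (-0.0067, SE 0.0995, edgeR adjusted p = 0.983). Of the glutamate carriers *Slc25a22* was at 5.08, 6.15 and 5.47 FPKM in Control and 4.95, 3.92 and 4.62 in KSPAPN, without overlap (-0.30, SE 0.13, edgeR adjusted p = 0.24). Its paralogue *Slc25a18* was at 1.02, 0.875 and 0.863 FPKM in Control and 0.674, 0.687 and 1.11 in KSPAPN, with overlap (-0.15, SE 0.33, edgeR adjusted p = 0.849). *Slc25a15*, the ornithine carrier of the urea cycle, had 33.3, 39.3 and 29.96 FPKM in Control and 26.8, 34.8 and 30.7 in KSPAPN, which overlapped (-0.15, edgeR adjusted p = 0.567). *Slc25a20*, which brings acylcarnitines in for fatty acid oxidation, was at 12.2, 11.4 and 11.5 and then 10.9, 8.53 and 11.8, also with overlap (-0.16, SE 0.12, edgeR adjusted p = 0.52). *Slc25a44*, a branched-chain amino acid carrier, had a log2 fold change of 0.00 (edgeR adjusted p = 0.999).

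Among the 7 cofactor carriers 6 were below 0, with a median of -0.16 and none past edgeR's test. *Slc25a51* (ENSMUSG00000045973, chr4:45395923-45408766), which imports NAD, stood at 45.8, 45.9 and 43.5 FPKM in Control and 37.5, 37.1 and 35.4 in KSPAPN. The groups were far apart for their spread, 45.1 ± 1.36 against 36.7 ± 1.12, with a log2 fold change of -0.29 and a standard error of 0.084. edgeR gave it an adjusted p of 0.098 and DESeq2 one of 0.0423, and with the replicate block and the GC content and length correction together edgeR gave 0.0451. The other alternatives did not call it, and with 1 library left out the edgeR adjusted p ran from 0.0782 to 0.31. The coenzyme A carrier *Slc25a42* had 27.0, 21.7 and 25.9 FPKM in Control and 17.4, 17.2 and 22.5 in KSPAPN, with 1 overlapping library on each side (-0.38, SE 0.13, edgeR adjusted p = 0.145). *Slc25a26*, the S-adenosylmethionine carrier, had 3.91, 3.43 and 3.17 FPKM in Control and 2.72, 2.68 and 2.68 in KSPAPN, without overlap (-0.37, SE 0.14, edgeR adjusted p = 0.172). *Slc25a17*, a peroxisomal carrier, had 31.8, 37.7 and 33.5 FPKM in Control and 26.1, 32.4 and 33.4 in KSPAPN, which overlapped (-0.16, SE 0.11, edgeR adjusted p = 0.477). The folate carrier *Slc25a32* was the member above 0, at 0.096 (edgeR adjusted p = 0.716).

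The iron and glutathione carriers split by paralogue, the more abundant of each pair below 0 and the less abundant above 0. *Slc25a28* (ENSMUSG00000040414, chr19:43663801-43674881), mitoferrin 2, had 30.2, 27.5 and 27.2 FPKM in Control and 25.7, 19.0 and 19.1 in KSPAPN, without overlap, and a log2 fold change of -0.40 (SE 0.13, edgeR adjusted p = 0.141). *Slc25a37*, mitoferrin 1, had 8.34, 7.75 and 7.61 FPKM in Control and 8.26, 7.98 and 8.21 in KSPAPN, which overlapped (0.051, SE 0.087, edgeR adjusted p = 0.801). *Slc25a39*, a glutathione importer and second in abundance, had 269, 274 and 275 FPKM in Control and 264, 217 and 195 in KSPAPN, all below Control but KSPAPN 1 close to it (-0.27, SE 0.12, edgeR adjusted p = 0.265). *Slc25a40*, its paralogue, was at 1.40, 1.602 and 1.71 and then 1.53, 2.36 and 2.23, where KSPAPN 1 lay inside the Control range (0.38, SE 0.18, edgeR adjusted p = 0.282). Without KSPAPN 1 the edgeR adjusted p was 0.0183 for *Slc25a28*, at a log2 fold change of -0.55, and 0.0439 for *Slc25a39*, at -0.39. In that fit 3.92% of protein-coding genes were called lower. With any other single library left out, the edgeR adjusted p ran from 0.207 to 0.403 for *Slc25a28* and from 0.381 to 0.593 for *Slc25a39*. Without KSPAPN 3 *Slc25a39* was at -0.17. With the GC content and length correction the log2 fold change was -0.34 for *Slc25a28*, 0.0005 for *Slc25a37*, -0.054 for *Slc25a39* and 0.23 for *Slc25a40*. Their longest transcripts have GC contents of 53.5%, 48.2%, 59.7% and 39.4%, in that order.

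The balance within paralogous pairs was compared as the ratio of their FPKM, over 6 pairs, with two-sided exact permutation tests in which 3 against 3 libraries cannot give a p under 0.1. These ratios were not corrected for GC content. The ratio *Slc25a28*/*Slc25a37* was 3.61, 3.55 and 3.58 in Control and 3.11, 2.39 and 2.33 in KSPAPN, with no overlap (difference -0.47 on the log2 scale, exact p = 0.1, adjusted over the 6 ratios 0.6). *Slc25a39*/*Slc25a40* was 193, 171 and 161 in Control and 172, 91.9 and 87.4 in KSPAPN, where KSPAPN 1 lay inside the Control range (exact permutation p = 0.3, adjusted 0.6). *Slc25a4*/*Slc25a5* was 0.221 ± 0.0235 in Control and 0.221 ± 0.0225 in KSPAPN (exact permutation p = 1). The ratios *Slc25a12*/*Slc25a13* (0.428 and 0.532 in the mean), *Slc25a22*/*Slc25a18* (6.12 and 5.74) and *Slc25a36*/*Slc25a33* (1.83 and 1.69) overlapped between the groups, with exact permutation p of 0.3, 0.7 and 0.8.

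The uncoupling proteins and their nearest relatives had 3 of 4 tested members above 0 and none past the test. *Ucp2*, which is found in many tissues, had 12.6, 14.98 and 20.6 FPKM in Control and 20.8, 13.1 and 16.2 in KSPAPN. These groups overlapped almost fully (log2 fold change 0.065, SE 0.20, edgeR adjusted p = 0.894). *Slc25a27*, also called UCP4, had 1.02, 1.13 and 1.08 FPKM in Control and 1.44, 1.46 and 1.58 in KSPAPN, without overlap (0.48, SE 0.19, edgeR adjusted p = 0.209). *Slc25a30* had 26.6 to 35.2 FPKM in Control and 19.8 to 28.2 in KSPAPN (-0.29, SE 0.14, edgeR adjusted p = 0.299, and -0.14 without KSPAPN 1), and *Slc25a14* 1.88 to 2.84 and 2.43 to 2.74 (0.21, SE 0.21, edgeR adjusted p = 0.639).

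*Ucp1*, the thermogenic uncoupling protein of brown fat, and *Ucp3*, that of muscle, were among the 6 members with too few reads to test. *Ucp1* had 7, 0 and 7 counts in Control and 10, 0 and 22 in KSPAPN, and *Ucp3* 1, 9 and 4 and then 3, 3 and 1. In both groups 1 library had no *Ucp1* read, where a count of 0 allows up to 0.167 CPM in Control 2 and 0.165 CPM in KSPAPN 2. These floors cover counting error only. Of the adipocyte markers, *Lep* had 1 read in 1 KSPAPN library and none elsewhere, and *Elovl3* had at most 1 read. *Fabp4*, which endothelial cells also express, had 617 to 659 counts in Control and 696 to 1138 in KSPAPN, and *Lipe* 324 to 392 and 314 to 543. *Cidea*, a lipid droplet protein of brown fat, had 9, 5 and 15 counts in Control and 38, 15 and 29 in KSPAPN (log2 fold change 1.25, SE 0.49, edgeR adjusted p = 0.202). It was the highest of the adipocyte markers tested, and *Cidec* was the lowest at -0.11 (SE 0.54, edgeR adjusted p = 0.939). The summed level of the 9 markers was 56.0 to 61.6 CPM in Control and 58.6 to 80.7 in KSPAPN, with 4 of the 5 tested above 0 and none called. The part of such tissue in the *Ucp1* counts was not tested. The other untested members were *Slc25a2*, *Slc25a31*, *Slc25a41* and *Slc25a54*, none with more than 5 counts in a library.

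The members with no substrate assigned here, and the outer membrane protein *Slc25a46*, had 7 of 8 tested below 0 with a median of -0.20. *Slc25a48* is in this group and was the only one past the test. *Slc25a43* had the lowest log2 fold change of the family, -0.83, but with a standard error of 0.47 at 0.728, 0.486 and 0.703 FPKM in Control and 0.410, 0.154 and 0.488 in KSPAPN, ranges that overlapped narrowly, it did not pass (edgeR adjusted p = 0.372), and without KSPAPN 2 it was at -0.50. *Slc25a46*, which takes part in the shape of the mitochondrial network, was above 0 at 0.16 (edgeR adjusted p = 0.569). *Slc25a35* shares 19.8% of its 100-base stretches with *Rangrf*, so its value is uncertain (-0.074, edgeR adjusted p = 0.851).

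GC content differed between members on either side of 0. The median GC content of the longest transcript was 53.2% for the 33 lower members and 47.6% for the 11 higher, against 49.9% for protein-coding genes tested, and the median lengths were 2670 and 3988 bases. After a trend against GC content and length was removed from each library, 26 members were below 0 and 18 above. The members' median was then -0.051 and that of protein-coding genes 0.041, and *Slc25a21* (-0.59, edgeR adjusted p = 0.0475) and *Slc25a48* (-0.65, edgeR adjusted p = 0.0408) were the members called lower.

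**Figure D4:**
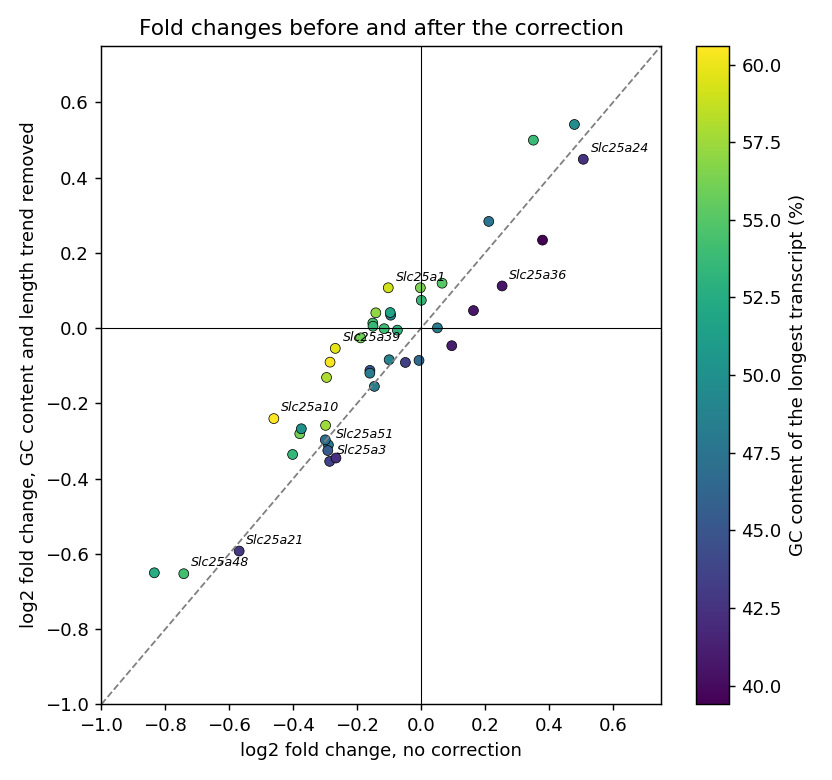
Log2 fold change of KSPAPN over Control for 43 of the 44 members tested before (horizontal axis) and after (vertical axis) the correction for GC content and length, coloured by the GC content of the longest transcript, with a dashed line of equality. Most members of high GC content lie above the line, *Slc25a10* from -0.46 to -0.24, and *Slc25a21* and *Slc25a48* stay near it at -0.59 and -0.65 after the correction.

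Other genes of mitochondrial transport were read out of the same fit. Of 9 carriers outside the Slc25 symbols, 5 were below 0 and 1 fell past the test: *Mpc2*, a subunit of the mitochondrial pyruvate carrier. Its FPKM was 40.4, 33.3 and 36.2 in Control and 24.3, 21.7 and 21.9 in KSPAPN, without overlap (log2 fold change -0.69, SE 0.10, edgeR adjusted p = 0.0113). Its partner subunit *Mpc1* had a log2 fold change of -0.37 (edgeR adjusted p = 0.119), and the highest of the list was *Sfxn2* at 0.36. The malate-aspartate shuttle enzymes were all below 0 without overlap in 4 of 4, where 13.8% of protein-coding genes were lower without overlap. The 4 enzymes were measured in the same libraries, with a median of -0.24 and none past edgeR's test. *Got2*, the mitochondrial aspartate aminotransferase, was the lowest of these at -0.36 (edgeR adjusted p = 0.0562, DESeq2 adjusted p = 0.00791), and *Mdh2* the highest at -0.15.

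Of 13 genes that import carriers into the inner membrane 10 were below 0, with a median of -0.18 and none past edgeR's test. *Timm13*, a chaperone of the intermembrane space, had 71.3, 55.7 and 62.5 FPKM in Control and 50.2, 29.5 and 30.3 in KSPAPN, lower without overlap (-0.77, SE 0.19, edgeR adjusted p = 0.0658, DESeq2 adjusted p = 0.00172). *Tomm40*, the pore of the outer membrane translocase, had a log2 fold change of -0.42 (edgeR adjusted p = 0.0807, DESeq2 adjusted p = 0.0324). Among the other lists none passed: the outer membrane channels (2 of 3 below 0, *Vdac1* lowest at -0.18), the calcium uniporter (3 of 7, *Smdt1* -0.30 to *Mcub* 0.45) and the carnitine shuttle enzymes (3 of 5, *Cpt1a* -0.17 to *Cpt1c* 0.25). Of the markers of other nephron segments, *Slc12a1*, the sodium-potassium-chloride cotransporter of the thick ascending limb, rose (0.52, edgeR adjusted p = 0.0437), with 7 of 11 in that list above 0. In the same list *Slc4a1*, an anion exchanger of intercalated cells, was lowest at -0.71 without overlap (edgeR adjusted p = 0.0893, DESeq2 adjusted p = 0.0135), and at an unadjusted edgeR p under 0.05 there were 3 markers lower and 1 higher. Other markers of these segments had the opposite sign with overlapping groups: *Umod* of the ascending limb was at -0.045 and *Atp6v1g3* of intercalated cells at 0.14. All 6 podocyte markers were above 0 with none past the test (summed level 205 to 337 CPM in Control and 297 to 433 in KSPAPN). Macrophage and lymphocyte markers (114 to 119 and 98.1 to 141 CPM), erythroid markers (88.5 to 160 and 108 to 233 CPM) and muscle markers (25 to 38.6 and 36.6 to 42.9 CPM) had none past the test.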

How the data were processed

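The study sequenced poly(A) RNA of 6 whole kidney pools. The authors deposited a table of raw read counts, which are unnormalized whole numbers, and of FPKM. The FPKM adjust for length and for the library, with a scaling that did not follow the total counts on genes alone. The submitters' processing notes name STAR 2.5, TopHat, HTSeq 0.6.1, DESeq2 and edgeR without a role. Build, annotation and strandedness: not given in the sources used here. In the labels the extract protocol speaks of liver, while the tissue is labelled kidney. Ensembl identifiers were matched to GENCODE M21 (GRCm38), 54495 of 54532. Libraries were grouped by label, and p-values measure the spread between these pools.

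Counts were fitted with edgeR 4.0.16 in R 4.3.3 (TMM, minimum count 10, minimum total 15, two-sided quasi-likelihood test, Benjamini-Hochberg over 16017 genes). The t-test on FPKM of the study's methods was not used, since counts were at hand. Members were called at an adjusted p under 0.05. Alternatives were DESeq2 1.42.0, limma 3.58.1 on log2 FPKM with a pseudocount of 1 or 0.1, other scalings, no filter, a replicate block, a spline correction for GC content and length (5 degrees of freedom, genes over a log2 CPM of 3), and each library left out. Fits were also run on simulated counts with the same dispersion (relative spread) of 0.0225 for every gene. That setting lacks differences in spread between genes and a library that stands apart, and no result here rests on it. Python 3.11.15, pandas 2.3.3, SciPy 1.17.1 and matplotlib 3.10.9 made the tables, exact tests and plots. Depth limits precision: 3 counts, the floor of a count of 0, were 0.144 to 0.175 CPM.

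Values in every library are given for members called by edgeR or DESeq2, the 10 most abundant, both members of each ratio, *Ucp1* to *Ucp3* and the 5 with the largest log2 fold change in each direction. The members and lists were chosen with earlier results of these data known. The single values of 1 member are not reported here, and it stays in all counts and medians.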

Additional observations from a re-analysis of the deposited data

How the results depend on the processing

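Against 2 members called lower, DESeq2 gave 5, no filter on low counts 5, the replicate block 4, the replicate block with the GC content and length correction 5, total counts 1, and limma with a pseudocount of 1 or 0.1 gave 0 each. The share of protein-coding genes called lower was 2.47% in the main fit and 5.80% with DESeq2. It was 5.45% without the filter, 4.9% with the block and 3.38% with block and correction. Total counts gave 1.34%, and limma 0.717% and 0.703%, so the calls among all genes moved too. With 1 library left out the number ran from 0 to 4: 0 without Control 1, Control 2 or KSPAPN 3, 1 without Control 3 or KSPAPN 2, and 4 without KSPAPN 1. The share of protein-coding genes called lower ran from 0.235% without Control 1 to 3.92% without KSPAPN 1. The other alternatives gave 2, with 2.02% to 2.46% of protein-coding genes lower, and none of the 16 gave a member called higher. The members' median of -0.14 became -0.078 with total counts, where that of protein-coding genes became 0.082, -0.051 with the GC content and length correction and -0.049 with the block added, and ran from -0.16 to -0.11 with 1 library left out. The cause of these shifts was not tested. Same-numbered libraries deviated together with r of 0.054, 0.154 and 0.173 across genes, and the other pairs with r from -0.182 to 0.021. The labels name no pairing, so whether the numbers pair the libraries was not settled, and the main fit took no pairing. Each library correlated best with its own number, a hint at most. The deviations were taken from the mean of each group and sum to 0 there. These correlations are therefore tied to each other and cannot show a pairing by themselves.

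The sign of the log2 fold change held under all 16 alternatives for 29 members and turned for 15 under at least 1, none of them called, 14 of which are given here. With the GC content and length correction these were *Slc25a1* (0.11), *Slc25a11* (0.013), *Slc25a18* (0.0048), *Slc25a23* (0.11), *Slc25a32* (-0.047), *Slc25a4* (0.041), *Slc25a47* (0.041) and *Slc25a5* (0.034), and with the replicate block added *Slc25a1* (0.11), *Slc25a11* (0.013), *Slc25a23* (0.11), *Slc25a32* (-0.046), *Slc25a4* (0.039), *Slc25a47* (0.11) and *Slc25a5* (0.031). With total counts *Slc25a12* was 0.062, *Slc25a16* 0.020 and *Slc25a23* 0.063. limma gave *Slc25a23* 0.0001 and 0.0005 and *Slc25a44* -0.0047 and -0.0049 with pseudocounts of 1 and 0.1. *Slc25a44* was -0.0017 without the filter, and *Slc25a23* 0.0053 with the replicate block alone. With 1 library left out, values ran from -0.19 to 0.0002 for *Slc25a1*, -0.057 to 0.083 for *Slc25a12*, -0.092 to 0.10 for *Slc25a23*, -0.23 to 0.13 for *Slc25a25*, -0.23 to 0.036 for *Slc25a35*, -0.036 to 0.048 for *Slc25a44*, -0.51 to 0.13 for *Slc25a47*, -0.14 to 0.0034 for *Slc25a5* and -0.12 to 0.29 for *Ucp2*.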
